A study of Mus musculus with 2 samples.

Results

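The 7 MHC class II presentation genes H2-Aa, H2-Ab1, H2-Eb1, H2-DMa, H2-DMb1, Cd74 and Ciita were taken by symbol from the 32285 genes of a single-cell RNA sequencing experiment, and each symbol matched 1 gene. Tumors were grown under the skin of female C57BL/6 mice aged 6 to 8 weeks from 1000000 injected SO cells, a mouse ovarian cancer line that lacks p53 and carries Myc and Hras. The hosts were WT mice or TSK (tight skin) mice, which are heterozygous for an intragenic duplication in Fbn1 and serve as a model of systemic sclerosis, and the injected cells were the same line in both. Tumors of several mice were pooled by genotype and each pool gave 1 library, so the mice cannot be told apart and no test between genotypes was possible. The intervals given below are exact 95% intervals that cover counting error only, and do not cover the spread between cells, mice or pools.

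MHC class II molecules are pairs of an alpha and a beta chain that carry peptides from the endosomal pathway to the cell surface, where CD4 T cells read them. The invariant chain, encoded by Cd74, escorts the new pair and blocks its groove, and H2-DM then exchanges the last fragment of the invariant chain for peptide. Dendritic cells, B cells and many macrophages carry these molecules at rest, whereas endothelial cells, fibroblasts and many tumor cells can gain them under interferon-gamma, which acts through Jak1, Jak2 and Irf1 on Ciita, the transactivator that switches on the whole set.

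In GRCm38 (GENCODE M21) the genes of the classical and exchange molecules lie close together on chromosome 17, with H2-DMa (ENSMUSG00000037649) at chr17:34119541-34139101, H2-DMb1 (ENSMUSG00000079547) at chr17:34153072-34160230 and H2-Ab1 (ENSMUSG00000073421) at chr17:34257689-34269419. H2-Aa (ENSMUSG00000036594) follows at chr17:34282744-34287823 and H2-Eb1 (ENSMUSG00000060586) at chr17:34305867-34316674. Ciita (ENSMUSG00000022504) is at chr16:10480059-10528418, and Cd74 has the identifier ENSMUSG00000024610. The 3′ tags counted here cover gene ends, so levels are compared between cells and not between genes.

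Class II promoters share short boxes that are bound by the RFX complex, CREB and NF-Y and that recruit Ciita. In the RefSeq promoter set (GRCm38.p6, 250 bases before to 50 after each start) 4 of the 7 genes had an entry, and H2-Ab1, Cd74 and Ciita had none. The stretch from 110 to 41 bases before the start is shown for the 3 genes that hold a pair of the searched motifs. A tie between these letters and the levels given below was not tested. The capitals mark ATTGG (the reverse complement of CCAAT, the letters read by NF-Y), AACTGATG (letters of the X box) and TGACGTCA (the letters of a cAMP response element), which were searched on both strands and do not overlap here. The sequences read 5′ to 3′ on the strand of the gene, with H2-Aa on the minus strand (chr17:34287864-34287933), H2-Eb1 on the plus strand (chr17:34305757-34305826) and H2-DMb1 on the plus strand (chr17:34153081-34153150).
H2-Aa: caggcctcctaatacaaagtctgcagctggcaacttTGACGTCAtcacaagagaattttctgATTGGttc
H2-Eb1: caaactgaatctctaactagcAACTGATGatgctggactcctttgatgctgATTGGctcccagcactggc
H2-DMb1: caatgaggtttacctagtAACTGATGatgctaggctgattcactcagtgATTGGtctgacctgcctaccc

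ATTGG started 48 bases before the start of H2-Aa, 59 before that of H2-Eb1 and 61 before that of H2-DMb1. The starts are those of RefSeq, and for H2-DMb1 and H2-DMa they lie inside the GENCODE span given above, so that the H2-DMb1 stretch shown does too. H2-Eb1 had a further ATTGG on the other strand nearer to its start, outside the stretch shown, and H2-DMa had a single ATTGG at 198 bases before its start and neither of the longer motifs. ATTGG was present in 37.4% of all 32851 promoter entries, TGACGTCA in 1.79% and AACTGATG in 0.776%. A match is a description of the letters and not of binding.

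The WT library held 21225411 UMIs (unique molecular identifiers, 1 per captured RNA molecule) in 2332 barcodes and the TSK library 48296765 in 4436. Both libraries shared 263 barcodes, which were left out. Of the others, 1442 WT and 2961 TSK cells had at least 200 genes, at least 500 UMIs and at most 10% mitochondrial UMIs, with medians of 7659 and 7302 UMIs. Levels are given as counts per 1000000 UMIs (CPM). The shared barcodes that passed the same limits held the 7 genes at a summed 524 CPM in WT and 71.0 CPM in TSK. Cells were named one by one from raw UMIs of lineage markers, none of which is among the 7 genes. Cells that met the lists of several unrelated lineages with none well ahead (32 WT, 180 TSK) or of none (243 WT, 506 TSK) stayed without a name. No doublet caller was run, and such cells with several lists were treated as possible doublets and left out of every lineage.

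The 7 genes gave 62664 UMIs in WT and 36549 in TSK. Summed, they stood at 3671 CPM (3642 to 3700) in all WT cells and at 800.4 (792.2 to 808.7) in all TSK cells, a 4.59-fold difference. Each gene was lower in TSK. The alpha chain gene H2-Aa stood at 676 CPM in WT and 153 in TSK, and its partner H2-Ab1 at 613 and 135. H2-Eb1, the beta chain gene of the other class II isotype, stood at 534 and 118. The C57BL/6 haplotype does not make the alpha chain of that isotype, and H2-Ea was not analysed here.

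The peptide exchange genes H2-DMa (68.0 and 18.3 CPM) and H2-DMb1 (71.4 and 16.2) were lower by a like ratio, as was Cd74 (1693 and 357). Ciita, a transcription factor gene of low level, stood at 15.0 CPM in WT and 2.83 in TSK. The log2 ratios of TSK over WT ran from -2.41 (Ciita) to -1.89 (H2-DMa), and 7 of 7 genes were at least 2-fold lower in TSK, against 17.4% of all 14786 genes tested in whole libraries. Genes with fewer than 50 UMIs in both libraries together, or fewer than 10 in either, were not compared. This difference did not keep its direction when cells were limited to at most 10000 UMIs and genes, upper limits that the methods of the study name: 920 WT and 1701 TSK cells were left, and the summed log2 ratio became 0.59, with 7 of 7 single-gene ratios above 0. In bulk sums such as these, fewer cells of a type and less RNA per cell cannot be told apart.

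Most of the class II UMIs lay in few cell types. Macrophage-like cells held 67.1% of the UMIs of the 7 genes in WT (66.7 to 67.4%) and 76.0% in TSK (75.6 to 76.4%), although they held 15.9% and 6.54% of the UMIs of all genes. Together, macrophage-, monocyte-, dendritic- and B-like cells held 80.8% of the class II UMIs in WT and 85.4% in TSK. Cells with the markers of several lineages held 3.01% in both libraries, and cells of no lineage 9.99% and 7.25%. Cancer-like cells, which took 17.7% of all UMIs in WT and 61.7% in TSK, held 0.705% and 2.05% of those of the 7 genes.

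**Figure D1:**
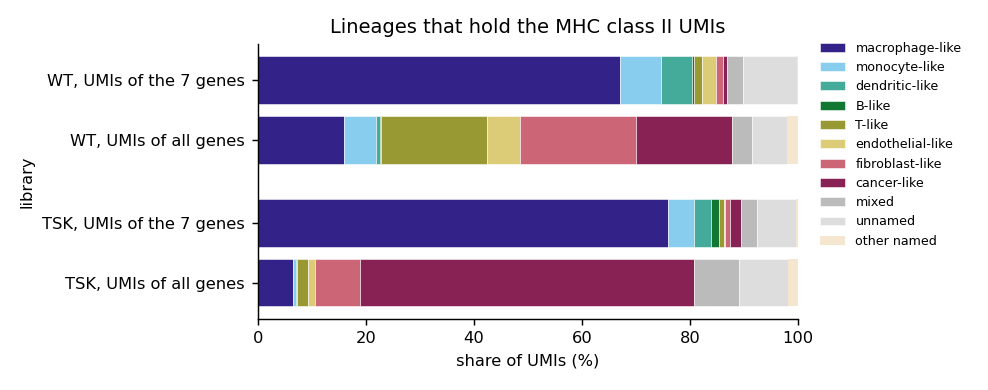
Stacked bars of the share of UMIs (%) held by each lineage in WT and TSK libraries, for the 7 class II genes and for all genes. Macrophage-like cells fill 67.1% and 76.0% of the class II bars, while cancer-like cells fill 61.7% of the bar of all TSK UMIs.

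When the TSK level of each lineage was weighted by the WT library's share of UMIs in that lineage, the sum was 2189 CPM, and when the WT levels were weighted by the TSK shares it was 1998 CPM. Both values lie between the 3671 CPM of the WT and the 800.4 CPM of the TSK library. Cells with the markers of several lineages and cells of no lineage were counted here as 2 further groups. The former stood at 2995 CPM in WT and 286 CPM in TSK, and the latter at 5679 and 647 CPM. The makeup of these groups is not known, so the parts of makeup and of level within lineages were not separated.

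Ordered by the summed level, dendritic-like cells stood highest in both libraries, at 29515 CPM in 8 WT cells and 14621 CPM in 18 TSK cells. In the WT library macrophage-like cells followed at 15447 CPM (205 cells), then B-like cells at 11064 CPM (3 cells), monocyte-like cells at 4606 CPM (114 cells) and endothelial-like cells at 1496 CPM (58 cells). None of these neighbours overlapped in their counting intervals, but 3 B-like and 8 dendritic-like cells cannot fix an order.

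In the TSK library B-like cells came second at 11944 CPM (21 cells, interval 10951 to 13004), ahead of macrophage-like cells at 9301 CPM (387 cells) and monocyte-like cells at 7068 CPM (51 cells). The endothelial-like cells of the TSK library stood at 78.7 CPM (56 cells, 57.8 to 105), so that they overlapped with fibroblast-like cells at 93.6 CPM (84.1 to 104) and mural-like cells at 57.5 CPM (34.6 to 89.8). Cancer-like cells stood below all 3, at 26.5 CPM (24.7 to 28.5).

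T-like cells, which in mice do not make class II molecules to any extent, served as a rough background. They were shallower than endothelial-, fibroblast- and cancer-like cells, and thinning does not make the part of stray RNA equal between cells of unlike depth. Their summed level was 293 CPM in WT (275 to 312, 453 cells, median 6881 UMIs) and 388 CPM in TSK (348 to 430, 280 cells, median 2989 UMIs). Of the T-like UMIs of the 7 genes, 58.4% in WT and 62.9% in TSK came from the 2 cells with most, and the median T-like cell had none. Neutrophil-like cells (282 CPM, 191 to 403) overlapped with T-like cells in WT and were below them in TSK (150 CPM, 117 to 188).

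**Figure D2:**
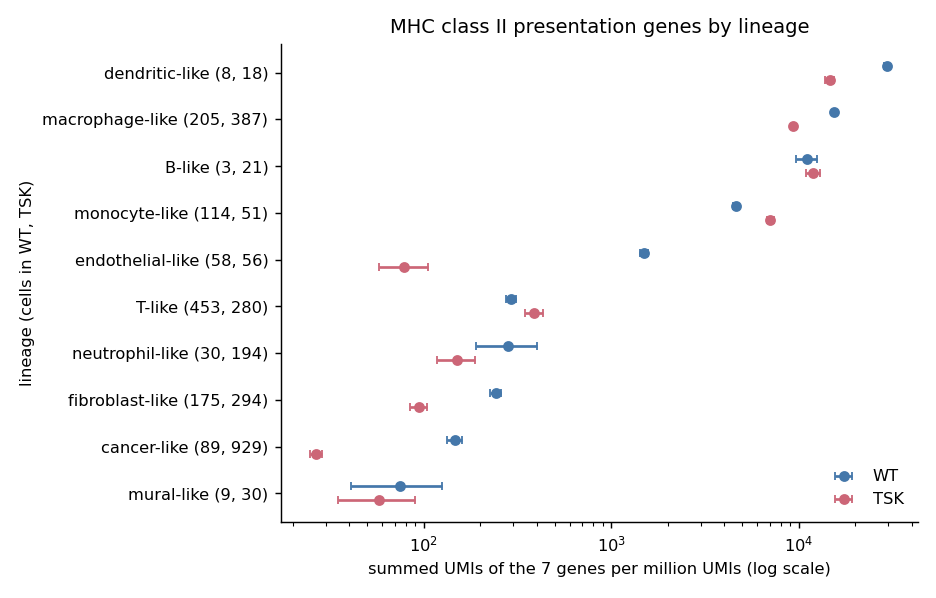
Summed UMIs of the 7 genes in CPM (x axis, log scale) by lineage and library, with exact 95% counting intervals and cell numbers in parentheses. Dendritic-like cells stand highest in both libraries, and the widest gap between the libraries is in endothelial-like cells, at 1496 CPM in WT and 78.7 CPM in TSK.

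Macrophage-like cells, named by C1qa, C1qb, C1qc, Mrc1, Adgre1, Ms4a7 and Csf1r, were the lineage in which the 7 genes could be measured best. All 7 were lower in TSK, where the summed level of 9301 CPM (9192 to 9411) was 1.66-fold below the 15447 CPM (15300 to 15595) of the WT library. The log2 ratio was -0.73, whereas the median over all genes tested in these cells was 0.19. Every alternative processing kept the direction, with log2 ratios from -0.92 to -0.42.

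The classical chains differed by a like amount. H2-Aa stood at 2901 CPM in WT and 1816 in TSK (log2 ratio -0.68, interval -0.73 to -0.63). H2-Ab1 stood at 2514 and 1532 CPM (-0.71, -0.77 to -0.66) and H2-Eb1 at 2259 and 1365 CPM (-0.73, -0.78 to -0.67). The intervals of H2-Aa, H2-Ab1 and H2-Eb1 overlapped, so that no chain stood apart from the others.

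Cd74 stood at 7193 CPM in WT and 4218 CPM in TSK (-0.77, -0.80 to -0.74). The peptide exchange genes are a pair whose products act as a single dimer. H2-DMb1 stood at 286 and 173 CPM (-0.73, -0.89 to -0.56), and H2-DMa at 245 and 175 CPM (-0.48, -0.65 to -0.31), the smallest difference of the 7 genes.

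Ciita had the largest difference in macrophage-like cells, from 49.6 CPM (41.6 to 58.7) in WT to 20.8 CPM (15.9 to 26.6) in TSK. Its log2 ratio was -1.26 (-1.72 to -0.81), and its interval lay below those of Cd74 (-0.80 to -0.74) and H2-Aa (-0.73 to -0.63) but overlapped with that of H2-DMb1. The value rests on 135 and 62 UMIs, and in cells of at most 10000 UMIs and genes it was -0.82, which is no longer a 2-fold difference. Among the 7 genes, 1 was at least 2-fold lower in these cells (Ciita), against 1.24% of 7958 genes tested, and 0 were at least 2-fold higher, against 4.15%.

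The makeup of the class II UMIs of macrophage-like cells was close in both libraries, though not equal for every gene. Cd74 made up 46.6% of their UMIs in WT macrophage-like cells (46.1 to 47.0%) and 45.4% in TSK ones (44.8 to 45.9%), and H2-Ab1 16.3% (15.9 to 16.6%) and 16.5% (16.0 to 16.9%). H2-DMa made up 1.58% (1.47 to 1.71%) and 1.89% (1.73 to 2.05%), and Ciita 0.321% (0.269 to 0.380%) and 0.223% (0.171 to 0.286%). The intervals of Cd74 and H2-DMa did not overlap between the libraries, while those of H2-Ab1 and Ciita did.

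The difference was spread over many macrophage-like cells. The median cell had 139 UMIs of the 7 genes per 10000 UMIs in WT (quartiles 38.0 and 231) and 60.0 in TSK (quartiles 7.37 and 155). Cells above 100 per 10000 made up 59.5% of the WT cells (122 of 205, 52.5 to 66.3%), and in TSK they made up 39.5% (153 of 387, 34.6 to 44.6%). The cell with most class II UMIs held 2.22% of the WT and 1.85% of the TSK macrophage total.

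WT macrophage-like cells were deeper, with a median of 11827 UMIs against 6956, so shares of cells were compared at 2000 UMIs per cell. At that depth at least 1 of the 7 genes had a UMI in 91.4% of 187 WT cells (86.5 to 95.03%) and in 82.1% of 329 TSK cells (77.5 to 86.1%), and at least 3 genes in 79.7% (73.2 to 85.2%) and 63.2% (57.8 to 68.4%). In T-like cells the share with any of the 7 genes was 13.6% (10.6 to 17.2%) and 17.5% (12.8 to 23.1%) at the same depth. Without thinning, 96.6% of WT and 90.2% of TSK macrophage-like cells had a UMI of any of the 7 genes, against 30.7% and 27.5% of T-like cells.

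The gap between the libraries depended on the depth of the cells compared. In macrophage-like cells of at most 10000 UMIs the summed level was 14738 CPM in 83 WT and 10991 CPM in 276 TSK cells (log2 ratio -0.42, -0.47 to -0.38). In cells over 10000 UMIs it was 15567 CPM in 122 WT and 7824 CPM in 111 TSK cells (-0.99, -1.02 to -0.96). The TSK cells were thus lower in both ranges of depth, and the part of depth in the difference was not tested further.

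**Figure D3:**
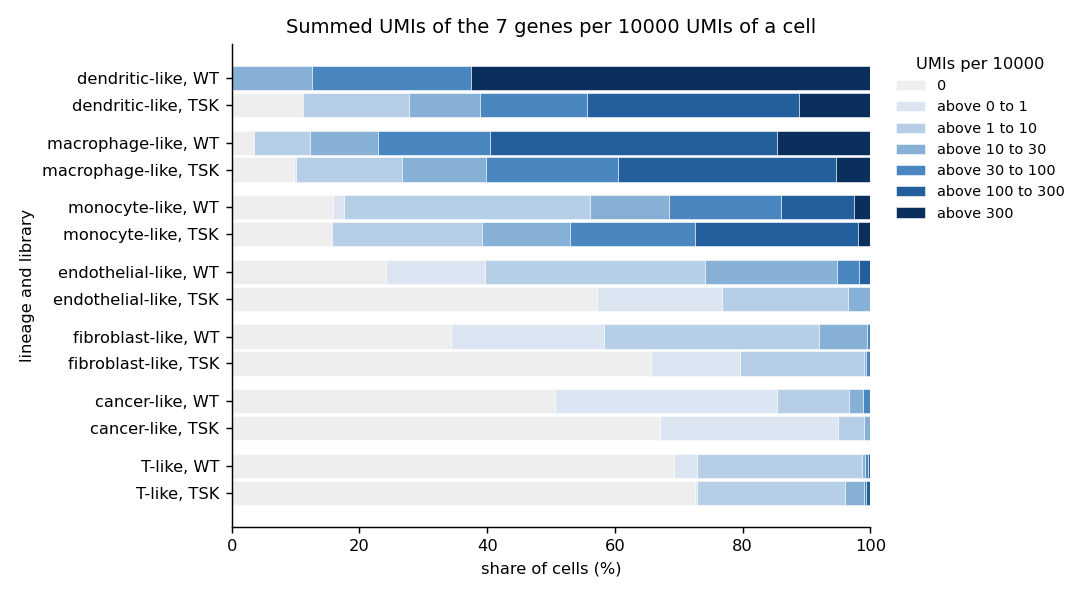
Share of cells (%) in classes of the summed UMIs of the 7 genes per 10000 UMIs of a cell, by lineage and library, with darker blue for higher classes. Above 100 per 10000 lie 59.5% of WT and 39.5% of TSK macrophage-like cells, whereas in monocyte-like cells the TSK bar is the darker, at 27.5% against 14.0%.

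Macrophage-like cells were next divided by Arg1, the arginase gene of suppressive tumor macrophages, and by Folr2, Lyve1 and Cd163, genes of tissue-resident macrophages. Cells with Arg1 below 10 UMIs per 10000 had the highest level in both libraries, 22913 CPM (22612 to 23216) in 96 WT and 12489 CPM (12252 to 12729) in 135 TSK cells. Cells with Arg1 at or above that limit had 11195 CPM (11036 to 11356) in 104 WT and 7919 CPM (7787 to 8053) in 201 TSK cells. Cells with at least 2 of Folr2, Lyve1 and Cd163 had 14192 CPM in 5 WT and 8519 CPM in 51 TSK cells.

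Every state was lower in TSK. The log2 ratio was -0.88 (-0.91 to -0.84) in Arg1-low cells, -0.50 (-0.53 to -0.47) in Arg1-high cells and -0.74 (-0.84 to -0.63) in the Folr2, Lyve1 or Cd163 cells. Leaving out the last gave -0.72 for all others. Cells with both Mki67 and Top2a, genes of dividing cells, had 11344 CPM in 4 WT and 3894 CPM in 22 TSK cells.

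**Figure D4:**
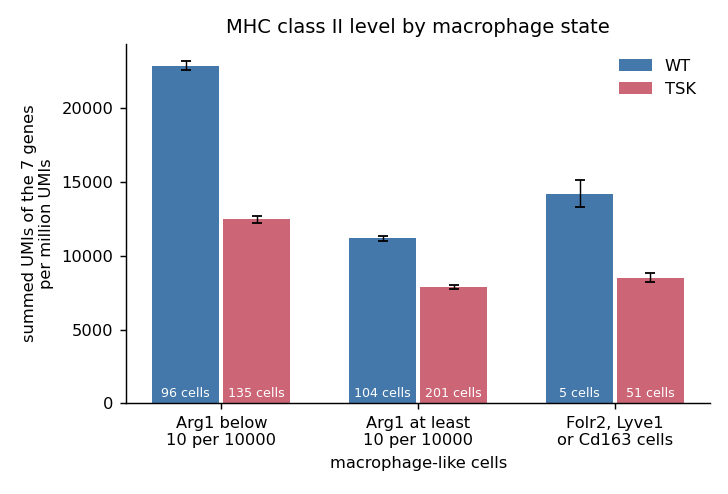
Bars of the summed UMIs of the 7 genes in CPM in macrophage-like cells of each state and library, with exact 95% counting intervals and cell numbers in the bars. The TSK bar is lower in all 3 states, and Arg1-low cells stand highest in both libraries, at 22913 and 12489 CPM.

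Monocyte-like cells, named by at least 3 of Ly6c2, Ccr2, Chil3, Plac8, Vcan and F13a1, went the other way. Their summed level was 4606 CPM (4476 to 4739) in 114 WT cells and 7068 CPM (6741 to 7406) in 51 TSK cells, a log2 ratio of 0.62 (0.54 to 0.70). The median over all genes tested in these cells was 0.19, and every alternative kept the direction, with ratios from 0.34 to 1.19.

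The 6 genes with enough UMIs were all higher in TSK monocyte-like cells. H2-Aa stood at 856 CPM in WT and 1168 in TSK, H2-Ab1 at 705 and 1120, and H2-Eb1 at 562 and 914. Cd74 stood at 2188 and 3318 CPM. The largest difference was in H2-DMb1, at 130 and 262 CPM (1.01, 0.56 to 1.44), followed by H2-DMa at 142 and 258 CPM (0.86, 0.41 to 1.29).

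For Ciita, 24 WT and 7 TSK UMIs gave 23.3 CPM (15.0 to 34.7) and 28.2 CPM (11.3 to 58.1), and its log2 ratio of 0.27 (-1.19 to 1.53) gave no direction. Of the 6 genes tested, 1 was at least 2-fold higher (H2-DMb1), against 4.77% of 3105 genes. The monocyte-like cells of the TSK library were shallower (median 4639 UMIs against 8916). The cell with most class II UMIs held 11.5% of the WT and 13.6% of the TSK sum, and without those cells the log2 ratio was 0.60. In the median cell the 7 genes had 6.30 UMIs per 10000 in WT and 18.4 in TSK.

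The share of monocyte-like cells above 100 per 10000 was 14.0% (16 of 114, 8.24 to 21.8%) in WT and 27.5% (14 of 51, 15.9 to 41.7%) in TSK, and these intervals overlapped. Monocyte-like cells stood below macrophage-like cells in both libraries, by 15447 to 4606 CPM in WT and by 9301 to 7068 CPM in TSK.

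**Figure D5:**
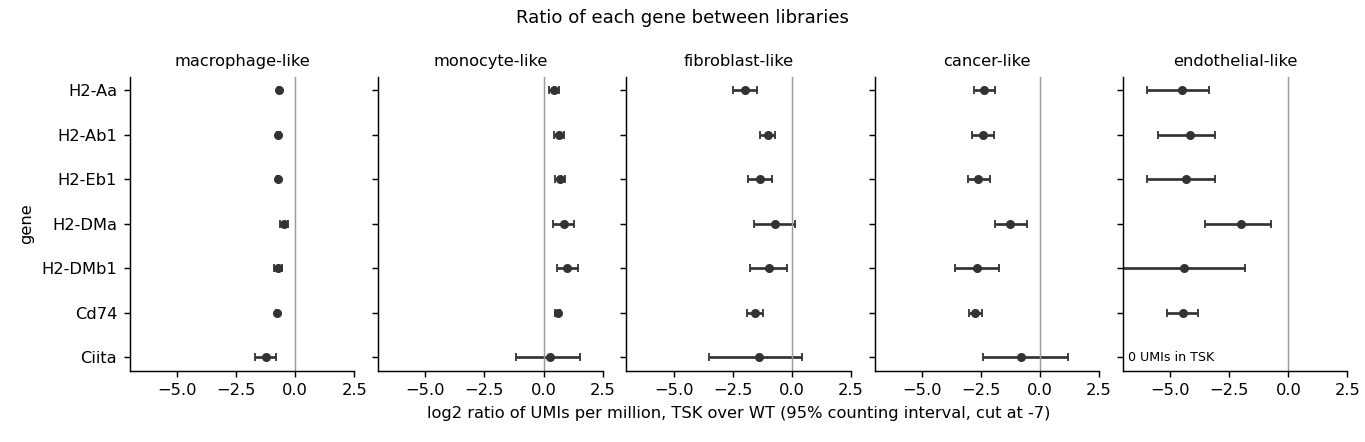
Log2 ratio of CPM, TSK over WT, for each of the 7 genes (rows) in 5 lineages (panels), with exact 95% counting intervals cut at -7. All points drawn lie left of 0 in macrophage-, fibroblast-, cancer- and endothelial-like cells and right of 0 in monocyte-like cells. The intervals of Ciita in monocyte-, fibroblast- and cancer-like cells and of H2-DMa in fibroblast-like cells span 0 and give no direction. No ratio is drawn for Ciita in endothelial-like cells, which had 0 UMIs in TSK.

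Dendritic-like cells, the lineage named by Flt3, Zbtb46, Xcr1, Clec9a, Cd209a, Ccl17, Ccl22, Ccr7 and Siglech, were few. Their summed level was 29515 CPM (28561 to 30492) in 8 WT cells and 14621 CPM (13782 to 15498) in 18 TSK cells. The cells with most class II UMIs weighed heavily, since the first 2 held 54.2% of the WT and 46.4% of the TSK sum. H2-Aa stood at 5722 CPM in WT and 2904 in TSK, H2-Ab1 at 5641 and 2607, H2-Eb1 at 4988 and 2736, and Cd74 at 12267 and 5859.

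For Ciita, 10 and 8 UMIs gave 81.5 CPM (39.1 to 150) and 103 CPM (44.6 to 203), too few for a direction. The dendritic markers that the cells held are given next, and a cell can count under several. Cells with Cd209a or Ccl17 (5 WT, 9 TSK) had 31359 and 23413 CPM, those with Ccr7 or Ccl22 (5 and 12) 19936 and 14388 CPM, and the 3 TSK cells with plasmacytoid markers had 6222 CPM, while no such cell was named in WT. Requiring 1 more marker left 3 WT and 11 TSK cells and a log2 ratio of -0.57 in place of -1.01, and the limit of 10000 UMIs and genes gave -1.62.

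B-like cells did not differ between the libraries beyond counting error, at 11064 CPM (9695 to 12573) in 3 WT cells and 11944 CPM (10951 to 13004) in 21 TSK cells. The log2 ratio was 0.11 (-0.11 to 0.34), and over the alternatives it ran from -0.30 to 0.43. H2-Aa stood at 2589 and 2515 CPM and Cd74 at 6168 and 5344. H2-Ab1 was higher in TSK, at 942 and 1774 CPM (0.91, 0.19 to 1.70), on 20 and 79 UMIs. Every B-like cell had at least 38.2 UMIs of the 7 genes per 10000. H2-DMb1 had 0 UMIs in the 3 WT cells, which allows up to 141 CPM by the limit of 3 counts. In the TSK cells 9 UMIs gave 202 CPM (92.4 to 384), so no difference is read.

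Endothelial-like cells, named by Pecam1, Cdh5, Cldn5, Gpihbp1, Egfl7 and Kdr, showed the widest gap. Their summed level was 1496 CPM (1422 to 1573) in 58 WT cells and 78.7 CPM (57.8 to 105) in 56 TSK cells, a log2 ratio of -4.25 (-4.70 to -3.83), against a median of 0.26 over all genes tested. A single WT cell held 707 of the 1541 WT UMIs. It had UMIs of 6 of 6 endothelial markers (134 UMIs) but also of 5 of 7 macrophage markers (12 UMIs) and 5 of 9 dendritic markers (41 UMIs) among its 35121 UMIs. Without the cell with most in each library the levels were 838 and 52.4 CPM, a ratio of -4.00. Over the alternatives the direction was kept, but the ratio ran from -4.51 to -2.34, with -2.34 in cells of at most 10000 UMIs and genes, -2.98 with equal weight for each cell and -3.24 after thinning.

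Cd74 stood at 802 CPM in WT and 36.8 CPM in TSK endothelial-like cells, H2-Aa at 228 and 10.0, H2-Ab1 at 211 and 11.7, and H2-Eb1 at 171 and 8.37. H2-DMb1 stood at 35.9 and 1.67 CPM, and H2-DMa, with the smallest ratio, at 39.8 and 10.0 (-1.99, -3.51 to -0.74). Ciita had 9 UMIs in 7 of 58 WT cells (8.74 CPM) and 0 in the TSK cells, which allows up to 5.02 CPM. Of the 4 genes with at least 50 UMIs over both libraries, 4 were at least 2-fold lower in TSK, against 6.24% of 4538 genes. H2-Aa, H2-Ab1 and H2-Eb1 reached 50 UMIs through WT (235, 217 and 176 UMIs), with 6, 7 and 5 UMIs in TSK. With so few in TSK, a gene can pass this rule only if it is lower there, so these calls are no separate result. With at least 10 UMIs required in each library, Cd74 alone could be tested and was lower, against 5.03% of all genes so tested.

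The endothelial level was not carried by that cell alone. At 2000 UMIs per cell, at least 1 of the 7 genes was seen in 42.1% of 57 WT cells (29.1 to 55.9%) and 13.7% of 51 TSK cells (5.70 to 26.3%), against 13.6% and 17.5% of T-like cells. Median depths were 15205 and 8892 UMIs for endothelial-like cells. At least 3 of the 7 genes were seen in 17.5% of the WT cells (8.75 to 29.9%) and in 0 of 51 TSK cells (up to 6.98%), against 1.12% and 1.32% of T-like cells. The TSK share lies at the T-like background, and the WT share above it. Since T-like cells were shallower, the TSK share does not show that expression was absent.

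Macrophage markers were low in these cells beside their level in macrophage-like cells. The 7 macrophage markers summed to 23.3 CPM in WT and 16.7 CPM in TSK endothelial-like cells, with 1 and 2 of the 7 at 0, against 7428 and 9067 CPM in macrophage-like cells, and the 9 dendritic markers to 71.8 and 46.9 CPM, with 3 and 6 at 0. Of the 74 UMIs of dendritic markers in WT endothelial-like cells, 41 lay in the cell with most class II UMIs. In cells without a UMI of C1qa, C1qb, C1qc or Lyz2 (45 of 58 WT and 45 of 56 TSK cells) the class II level was 664 and 79.3 CPM, a ratio of -3.07. That step does not leave out cells with dendritic RNA, and the part of such RNA was not tested.

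Fibroblast-like cells, named by collagen genes, Dcn, Lum, Pdgfra and Postn, had a low level that was 2.58-fold higher in WT, at 241 CPM (226 to 258, 175 cells) against 93.6 CPM (84.1 to 104, 294 cells). The log2 ratio was -1.37 (-1.55 to -1.19), against a median of 0.34 over all genes tested. The WT value was below the 293 CPM of T-like cells, which rests largely on 2 cells. Without the cell with most class II UMIs in each lineage, the WT fibroblast-like level was the higher, at 223 against 193 CPM. A single TSK cell held 31.7% of the TSK UMIs, and without the cell with most in each library the ratio was -1.80. The alternatives gave from -2.42 to -0.80.

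The makeup of the class II UMIs of fibroblast-like cells differed from that of macrophage-like cells. H2-Ab1 made up 26.0% of them in WT (23.1 to 29.0%) and 32.9% in TSK (28.0 to 38.0%), against 16.3% and 16.5% in macrophage-like cells, and Cd74 made up 32.5% (29.5 to 35.7%) and 28.4% (23.7 to 33.4%), against 46.6% and 45.4%. In T-like cells H2-Ab1 made up 19.0% (16.6 to 21.6%) and 15.3% (11.7 to 19.5%). Of the 19 class II UMIs of TSK mural-like cells, H2-Ab1 made up 52.6% (28.9 to 75.6%) and Cd74 had none (up to 17.6%). The 14 UMIs of WT mural-like cells went the other way, with none of H2-Ab1 (up to 23.2%) and 64.3% of Cd74 (35.1 to 87.2%). No makeup of mural-like cells is read from so few UMIs. H2-Ab1 stood at 62.7 and 30.8 CPM in fibroblast-like cells, H2-Aa at 45.6 and 11.6, and Cd74 at 78.6 and 26.6.

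At 2000 UMIs per cell, any of the 7 genes was seen in 24.5% of 163 WT fibroblast-like cells (18.1 to 31.9%) and 10.0% of 269 TSK ones (6.72 to 14.3%), and without thinning in 65.7% and 34.4% of cells with medians of 21165 and 10835 UMIs. The WT share was above the T-like share of 13.6%, and the TSK share below the 17.5% of T-like cells. As T-like cells were shallower, the TSK comparison does not show that expression was absent. Of the 6 genes tested, 4 were at least 2-fold lower in TSK, against 3.53% of 9489 genes. The 7 macrophage markers summed to 20.5 CPM in WT and 26.3 CPM in the TSK cells, with 1 of 7 at 0 in both.

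Cancer-like cells, named by Lgals7, Cdkn2a, Krt18, Krt8 and Hmga2, stood at 146 CPM (133 to 161) in 89 WT and 26.5 CPM (24.7 to 28.5) in 929 TSK cells. Both values were below those of T-like cells in the same library. At 2000 UMIs per cell any of the 7 genes was seen in 9.64% of 83 WT cells (4.25 to 18.1%) and 4.75% of 884 TSK cells (3.45 to 6.37%). These shares lie at or below those of T-like cells, which were much shallower, so neither expression nor its absence is read from them. The unthinned shares were 49.4% and 32.9%, in cells with medians of 34665 and 28636 UMIs.

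Of the 5 genes tested in cancer-like cells, 5 were at least 2-fold lower in TSK, against 8.36% of 10898 genes. A single WT cell with UMIs of 6 of 7 macrophage markers (39 UMIs) held 213 of the 442 WT class II UMIs. The TSK cell with most class II UMIs also had UMIs of 6 of 7 macrophage markers (71 UMIs), and it held 134 of 748. The log2 ratio of -2.46 became -1.82 without the cell with most in each library, and -1.69 in cells without a UMI of C1qa, C1qb, C1qc or Lyz2. All 7 macrophage markers had UMIs in these cells, at 23.5 CPM summed in WT and 12.5 CPM in TSK, and their part in the result was not tested.

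The genes most alike in pattern to the summed 7 genes were found among 13456 other genes with at least 100 UMIs, by Pearson's r of log2(CPM + 10) over 16 profiles of lineages with at least 20 cells in a library. Profiles of a library share its depth and makeup, so r is a description only. The 7 genes themselves had r from 0.88 (Ciita) to 0.99 (H2-Aa). Each of them is part of the sum, which raises its r, so these values cannot be set beside those of other genes. Among the 8 most alike genes were Ly86 (r = 0.94), Cd86 (0.91), Cd180 (0.91), Cd83 (0.91), Gm6377 (0.90), Unc93b1 (0.90) and Plcg2 (0.90). Ly86 and Cd180 encode partners in a surface receptor complex, and Cd86 and Cd83 are surface proteins of antigen-presenting cells.

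Between the libraries, these genes went with the class II genes in some lineages and not in others. In macrophage-like cells Cd86 stood at 353 CPM in WT and 502 CPM in TSK, and Cd83 at 128 and 230 CPM, whereas Ly86 stood at 314 and 217 CPM. Of these 7 named genes, Ly86 and Plcg2 (130 and 96.1 CPM) alone were lower in TSK macrophage-like cells, as were the 7 class II genes. In endothelial-like cells all 7 named genes had lower values in TSK, from 41.7 and 28.5 CPM for Unc93b1 to 1.94 and 1.67 CPM for Cd180. Cd86, Cd83 and Gm6377 had no UMI there in TSK. Several of these values rest on few UMIs, as for Cd86, with 7 in WT and a log2 ratio interval that reached 0.26. The genes were chosen by r over profiles that include both libraries of these lineages. A shared direction is thus partly built in by the choice and is no separate result.

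The other genes of the pathway were 28 genes of loading and processing, transcription, interferon-gamma response, co-stimulation and the T cell side, of which 27 were analysed here. In whole libraries 15 of 27 were at least 2-fold lower in TSK (17.4% of all genes), again with depth and makeup of the libraries included. In macrophage-like cells, 19 had enough UMIs, 0 of them were at least 2-fold lower (1.24% of all genes) and 1 (Cd80) was at least 2-fold higher (4.15%). In monocyte-like cells 1 of 13 was at least 2-fold higher, again Cd80 (4.77%). In the few dendritic-like cells (8 WT, 18 TSK) 2 of 5 were at least 2-fold higher (Cd80 and Cd86; 4.39%) and 0 lower (9.82%). In fibroblast-like cells 0 of 15 were at least 2-fold lower (3.53%) and 2 higher (Rfxap and Ifi30; 13.8%). In cancer-like cells 3 of 16 were lower (Ctss, Lgmn and Irf1; 8.36%) and 1 higher (Ifi30; 5.29%). In endothelial-like cells 1 of 8 was lower (Irf1; 5.03%) and 1 higher (Ifngr2; 13.7%).

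Among the processing genes of macrophage-like cells, Ctss, the protease that trims the invariant chain, differed little, at 2614 CPM in WT and 2470 in TSK (log2 ratio -0.08, -0.13 to -0.03). Ctsl, a cathepsin that does the same in thymic epithelium, stood higher in TSK, at 716 and 1050 CPM, as did Lgmn, an endosomal protease, at 901 and 1205 CPM. Ifi30, the thiol reductase that opens disulfides of antigens, stood at 760 and 632 CPM (-0.27, -0.36 to -0.17). March1, whose product marks class II molecules for turnover, stood at 149 and 123 CPM (-0.28, -0.49 to -0.08).

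H2-DMb2, a near copy of H2-DMb1 that could share reads with it, stood at 16.5 CPM in WT and 9.37 in TSK. H2-Oa and H2-Ob, which form the brake of H2-DM in B cells, had at most 9 UMIs each in macrophage-like cells of a library.

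The factors that bind class II promoters did not show a common direction in macrophage-like cells. Of the 5 with enough UMIs, Nfya stood at 20.2 CPM in WT and 32.5 in TSK (0.68, 0.19 to 1.19), and the intervals of Rfxap, Nfyb, Nfyc and Creb1 all held 0. In cancer-like cells the 7 factors had log2 ratios from -0.04 to 0.41.

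Irf1, of the interferon-gamma response, was lower in several lineages of the TSK library. In macrophage-like cells this interferon-induced factor, which acts on Ciita, stood at 274 CPM in WT and 159 in TSK (-0.79, -0.96 to -0.62). The receptor genes Ifngr1 (131 and 110 CPM) and Ifngr2 (83.8 and 68.3 CPM) and the kinase gene Jak2 (122 and 107 CPM) were also lower, the last by less than counting error, and Jak1 stood at 250.3 and 241 CPM.

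In endothelial-like cells Irf1 stood at 282 CPM in WT and 73.7 in TSK (-1.93, -2.43 to -1.47), while the receptor gene Ifngr2 went the other way, at 29.1 and 58.6 CPM (1.01, 0.26 to 1.76). Ifngr1 (-0.84, -1.47 to -0.26) and Jak1 (-0.82, -1.10 to -0.54) were lower there too, and the interval of Jak2 held 0. Fibroblast-like cells had Irf1 at 186 and 135 CPM (-0.46, -0.63 to -0.29) and cancer-like cells at 92.98 and 39.6 CPM (-1.23, -1.42 to -1.04). In monocyte-like cells, where 6 of the 7 genes were higher in TSK and Ciita gave no direction, Irf1 stood at 369 and 230 CPM (-0.69, -1.11 to -0.28).

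Ifng itself came mostly from T-like cells, with 575 of 629 UMIs in WT and 128 of 177 in TSK. In T-like cells its level was 171 CPM in WT and 141 CPM in TSK (-0.28, -0.57 to -0.0002). Over all cells it stood at 36.8 and 3.88 CPM, beside a share of T-like cells of 31.4% (29.0 to 33.9%) and 9.46% (8.43 to 10.6%). The part of interferon-gamma in the class II levels was not tested.

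The co-stimulatory genes, whose products give T cells the second signal, had no common direction in macrophage-like cells. Cd80 stood at 26.8 CPM in WT and 74.0 CPM in TSK macrophage-like cells (1.46, 1.08 to 1.87) and at 63.2 and 189 CPM in monocyte-like cells (1.58, 1.01 to 2.15). Cd86 was higher in TSK macrophage-like cells (0.51, 0.39 to 0.63) and Cd40, like the class II genes, lower, at 65.1 and 48.9 CPM (-0.41, -0.74 to -0.09). On the T cell side, Cd4, the co-receptor for class II, stood at 48.4 and 46.1 CPM in T-like cells, and Lag3, an inhibitory receptor that binds class II, at 92.0 and 84.6 CPM, with intervals of the log2 ratio that held 0 for both.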

How the data were processed

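Single-cell RNA sequencing (10x Genomics, 3′ ends) was available for 1 WT and 1 TSK library. The deposited values are raw UMI counts per gene and barcode, made by the authors with Cell Ranger 7.1.0 per the file headers, without normalization. Of the gene IDs, 32158 were found in GENCODE M21 (GRCm38), 31436 with the same symbol.

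Cells with at least 200 genes, at least 500 UMIs and at most 10% mitochondrial UMIs were kept, and barcodes present in both libraries were left out. A marker was on at 1 or more UMIs and at least 2 per 10000, and a cell was named when at least 2 markers of a lineage (3 for monocytes) were on. Related lists (macrophage, monocyte and dendritic, fibroblast and mural, T and NK) were settled by fixed rules, mostly by the larger share of markers on, and cells that met unrelated lists were left out as mixed where the second list's share was above 0.5 of the first's. No doublet caller was run. UMIs were summed per lineage and library and divided by all UMIs of those cells. Intervals are exact Poisson, binomial (Clopper-Pearson) and conditional binomial 95% intervals. They cover counting error only. With 1 library per genotype no test was made. Where a gene had no UMI, 3 counts set its upper limit. The ratio interval was tested on simulated data. Shares of cells were compared after thinning each cell to 2000 UMIs.

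The members, lists and lineage limits were chosen with earlier results of these data known. The text names the 7 genes, 28 listed pathway genes, and the 8 genes most alike by Pearson's r of log2(CPM + 10), less some genes that are not reported here. A gene was called at a 2-fold difference. The alternatives were an upper limit of 10000 UMIs and genes, shared barcodes kept, 1 more marker, mixed cells kept, 5% mitochondrial UMIs, equal weight for each cell, scaling by the median of gene ratios, thinning, and leaving out Cd74. Computations used scipy 1.17.1, pandas 2.3.3 and numpy 2.4.6 under Python 3.11.15, and matplotlib 3.10.9 drew the figures.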

Additional observations from a re-analysis of the deposited data

Results flagged for a closer look

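The summed level of the 7 genes went in opposite directions in a pair of related lineages. The log2 ratio of TSK over WT was -0.73 in macrophage-like cells and 0.62 in monocyte-like cells, with that sign in 7 of 7 genes in macrophage-like cells and in the 6 genes with enough UMIs in monocyte-like cells. Ciita gave no direction in monocyte-like cells (0.27, -1.19 to 1.53). The difference between the lineages was not tested, because each genotype had 1 library. TSK cells were shallower in both lineages, and no TSK monocyte-like cell had over 10000 UMIs. In cells of at most 10000 UMIs the ratios were -0.42 and 1.19.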

How the results depend on the processing

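No paired analysis was possible because each genotype had 1 library, and no library could be left out. Of 96 values of the summed ratios and macrophage shares under an alternative, 40 stayed within the counting interval, 55 moved and 1 reversed; the causes were not tested. Reversed means a change of sign in a ratio whose interval excludes 0, which that of B-like cells (0.11) does not. That ratio also fell below 0 with the limit of 10000 UMIs and genes (-0.06), with equal weight for each cell (-0.02), and without the cell with most class II UMIs (-0.11), beside the values below. With at most 10000 UMIs and genes per cell, the log2 ratio of all cells reversed to 0.59 (H2-Aa 0.64, H2-Ab1 0.64, H2-Eb1 0.72, H2-DMa 0.18, H2-DMb1 0.25, Cd74 0.55 and Ciita 0.23). The same limit gave -0.42 in macrophage-, 1.19 in monocyte-, -1.62 in dendritic-, -1.53 in cancer-, -1.80 in fibroblast- and -2.34 in endothelial-like cells, and macrophage shares of 53.2% (WT) and 70.8% (TSK).

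With shared barcodes kept the ratio was -2.004 in all and -1.83 in cancer-like cells, and the WT share 66.2%. Requiring 1 more marker gave -0.86 (macrophage), 0.34 (monocyte), -0.57 (dendritic) and -1.49 (cancer), with shares of 64.7% and 72.0%. With mixed cells kept the values were -0.81 (macrophage), -2.20 (cancer) and -2.42 (fibroblast), with shares of 67.7% and 78.1%. A limit of 5% mitochondrial UMIs gave -2.17 (all), -0.70 (macrophage) and a WT share of 66.6%. Equal weight for each cell gave -0.86 (all), -0.66 (macrophage), -1.27 (dendritic), -2.02 (cancer) and -2.98 (endothelial). Scaling by the median of gene ratios gave -2.34 (all), -0.92 (macrophage), 0.43 (monocyte), -0.19 (B) and -1.71 (fibroblast). Thinning gave -0.89 (all), -0.59 (macrophage), 0.53 (monocyte), -1.25 (dendritic), -0.30 (B), -0.80 (fibroblast) and -3.24 (endothelial), with shares of 63.6% and 71.9%. Without Cd74 the values were -2.16 (all), -0.70 (macrophage), 0.43 (B) and -2.26 (cancer), with shares of 66.5% and 75.05%.

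Chosen after seeing the data, leaving out the cell with most class II UMIs in each library gave -1.82 (cancer) and -1.80 (fibroblast). Leaving out cells with C1qa, C1qb, C1qc or Lyz2, also chosen then, gave -1.69 (cancer), -1.92 (fibroblast) and -3.07 (endothelial). Equal weight and scaling give no macrophage share. The B-like and dendritic-like values rest on few cells.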
